A study of Mus musculus with 2 samples.

Results

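Genes known as estrogen-responsive or luminal in breast and uterus were read in mouse myotubes made to express an estrogen receptor α that is constitutively active. The 30 genes were listed by name, with earlier results of these data known. Each was read through the probe set that the platform annotation assigns to that gene alone. Of the 30 genes, 28 had such a probe set, among 19938 named genes on the array. Areg, an epidermal growth factor (EGF) receptor ligand, and Prlr, the prolactin receptor, had none and are not analysed here.

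The cells were C2C12, a mouse myoblast line. They were held in 2% horse serum for 7 days to form myotubes, then exposed to virus at 30 infectious units per cell and collected 48 h later. The control culture received the adenovirus Ad-DsRed, which carries a red fluorescent protein, and the other culture received Ad-caERα, which carries the active receptor. Both cultures therefore carried a virus, and no uninfected culture was used here. The labels do not give the promoter of the vectors, nor the species or part of the receptor. Each vector was profiled on 1 Affymetrix array, so no difference below has a replicate check and no test between the vectors could be made. Values are log2 signals, and a difference is Ad-caERα less Ad-DsRed, so that a positive one means a higher signal with the active receptor. All 12 skeletal muscle markers lay above the detection floor on both arrays, as the label of the cells has it.

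Estrogen receptor α is a ligand-activated transcription factor. It binds estrogen response elements in DNA, mostly in enhancers far from genes, and recruits coactivators there. In breast and uterine epithelium the pioneer factors Foxa1 and Gata3 and the factor Tfap2c help to open many of those sites. The genes described here are targets or companions of the receptor in that setting: secreted peptides and growth factors, receptors, transcription factors, cell cycle and signalling proteins, and keratins of luminal cells. A constitutively active receptor does not need hormone.

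Promoter sequences are shown first because the members are grouped by their response to 1 DNA-binding factor. RefSeq promoter windows of assembly GRCm38.p6, running from 250 bases before to 50 bases after each annotated start, were found for 19 of the 30 genes. No window was found for Tff1, Ret, Ebag9, Myc, Mybl1, Tfap2c, Ccnd1, Rerg, Sgk3, Siah2 and Krt19, which were therefore not searched. The full estrogen response element was searched as GGTCANNNTGACC, an inverted repeat with a spacer of 3 bases, and 0 of the 19 genes held it, with up to 1 mismatch allowed as well. Among all 27025 genes with a window, 0.074% held the exact element and 0.995% held it with up to 1 mismatch. At shares this small, 0 among 19 genes does not set the members apart from other genes. The hexamer AGGTCA, which contains 1 arm of that element, was searched on both strands and lay in the windows of 5 of the 19 genes, against 18.1% of all genes. A match is a description of the letters and not a bound site. The stretches around these 5 matches are given below with the hexamer in capitals (TGACCT where it lies on the opposite strand), together with the match of Greb1, the gene with the largest difference among other estrogen-responsive genes. Of the other 3 genes of that list at least 2-fold higher, Esr1 and Pgr held no match in their windows, and Ccn5 had no window. All stretches are written 5′ to 3′ on the strand of the gene.
Ltf: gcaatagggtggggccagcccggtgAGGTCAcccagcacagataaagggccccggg
Ctsd: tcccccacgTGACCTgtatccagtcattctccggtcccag
Susd3: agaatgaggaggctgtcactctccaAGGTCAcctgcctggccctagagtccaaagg
Rab31: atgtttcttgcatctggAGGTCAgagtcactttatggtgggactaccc
Krt18: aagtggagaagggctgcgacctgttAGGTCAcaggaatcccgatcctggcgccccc
Greb1: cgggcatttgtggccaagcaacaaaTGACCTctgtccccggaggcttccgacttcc

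In GRCm38.p6 the Ltf stretch lies at chr9:111019221-111019276 on the plus strand, with the first base of the hexamer 46 bases before the start. The Ctsd stretch is at chr7:142388038-142388077 on the minus strand (241 bases before). The Susd3 stretch is at chr13:49248418-49248473 on the minus strand (154 bases before). The Rab31 stretch is at chr17:65772955-65773002 on the minus strand (233 bases before). The Krt18 stretch is at chr15:102028083-102028138 on the plus strand (108 bases before). The Greb1 stretch is at chr12:16800944-16800999 on the minus strand (88 bases before).

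Most of the listed genes gave a signal in myotubes, and the signals hardly differed between the vectors. A detection floor of 5.11 was set from olfactory and vomeronasal receptor genes, which muscle is not thought to express, and a gene was called measured when its higher value passed the floor. By this rule 23 of the 28 genes were measured, and all 23 passed the floor on both arrays. Over all named genes outside the receptor families 72.3% were measured. The 5 genes below the floor on both arrays were Ltf, Agr2, Ramp3, Foxa1 and Tfap2c. Just inside the floor lay Myb, at 5.33 and 5.18 in Ad-DsRed and Ad-caERα, and just outside it Foxa1, at 5.08 and 4.72. Celsr2 (5.23 and 5.35), Susd3 (5.36 and 5.35) and Krt18 (5.44 and 5.27) were also close above it. With a higher floor, at the 99th percentile of receptor probe sets, 16 of the 28 genes were measured. With that floor 10887 of the 18748 named genes outside the receptor families were measured. In whole cultures, fewer cells of a type and less RNA per cell cannot be told apart.

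**Figure D1:**
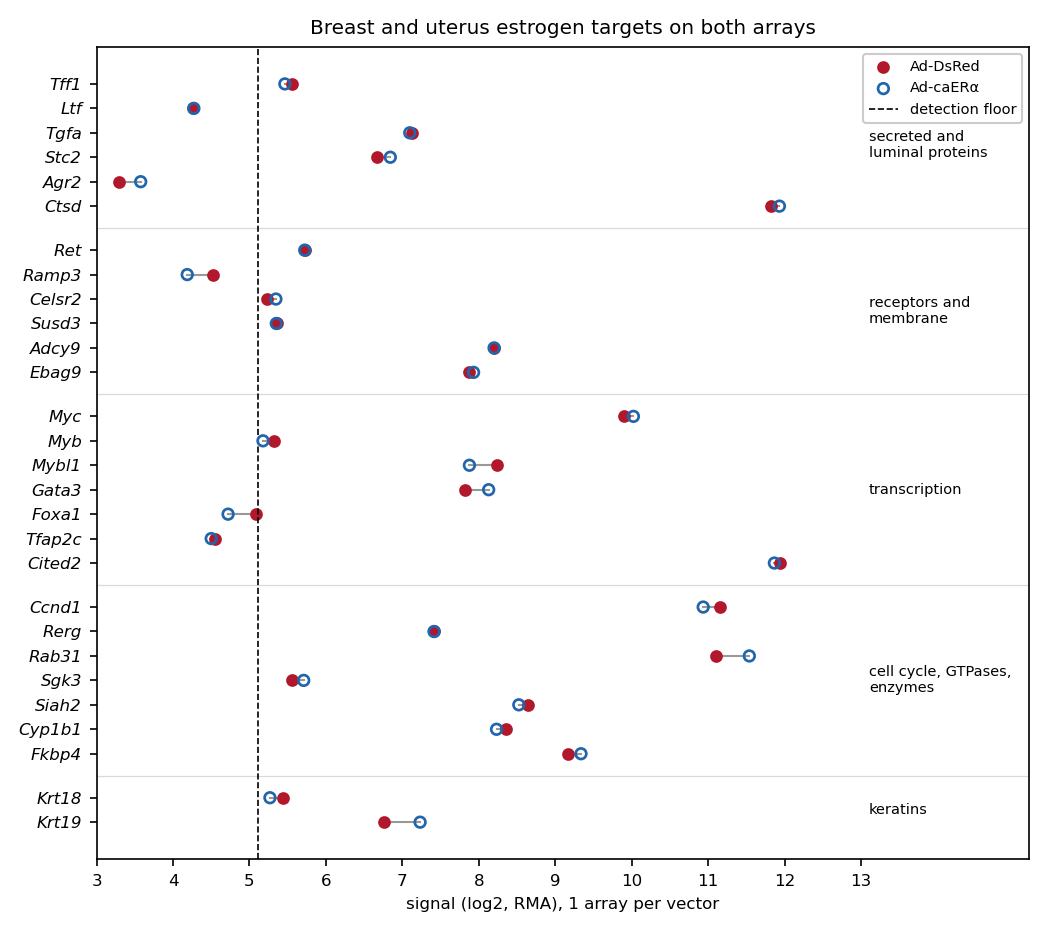
Log2 signal of the 28 genes in Ad-DsRed (filled red) and Ad-caERα (open blue), 1 array per vector, ordered by role; the dashed line is the detection floor of 5.11. The paired points lie close together for most genes, and 5 genes lie left of the floor on both arrays.

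No measured member reached a 2-fold difference in either direction. The count was 0 of 23 higher, against 0.59% of the 13550 measured genes, and 0 of 23 lower, against 0.0959%. At 1.5-fold the counts were again 0 higher and 0 lower, against 1.82% and 0.886% of measured genes. With background shares this small, a count of 0 among 23 genes does not set the members apart from other genes. In direction, 10 members lay above 0, 11 below and 2 at 0, whereas 50.2% of all measured genes lay above 0. The median difference of the members was 0, against 0.0018 over all measured genes, and it ranged from -0.37 to 0.47. The count above 0 depends on the scaling: it was 14 with each array centred on its median, 13 after a loess correction and 12 after quantile normalization. Under those 3 scalings 18 members kept their sign, 10 above 0 and 8 below, and the other 5, Tff1, Ret, Susd3, Adcy9 and Rerg, did not.

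The median size of the difference was 0.12 for the members and 0.14 for all measured genes. A difference of at least 0.2 was seen in 5 of 23 members (21.7%) and in 34.3% of measured genes. One of at least 0.3 was seen in 4 of 23 members (17.4%) and in 16.6% of measured genes, and one of at least 0.5 in 0 members and 4.14% of genes. Over the 500 measured genes nearest in mean level to each member, the SD of the difference ran from 0.17 to 0.34. This spread over genes stands in for the missing spread over cultures and is no error of a single value. Mybl1, Gata3, Rab31 and Krt19 lay past 1 such SD, and Rab31 alone past 2. These are 17.4% and 4.35% of the members, against 23.5% and 3.92% of all measured genes held to their own nearest genes.

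**Figure D2:**
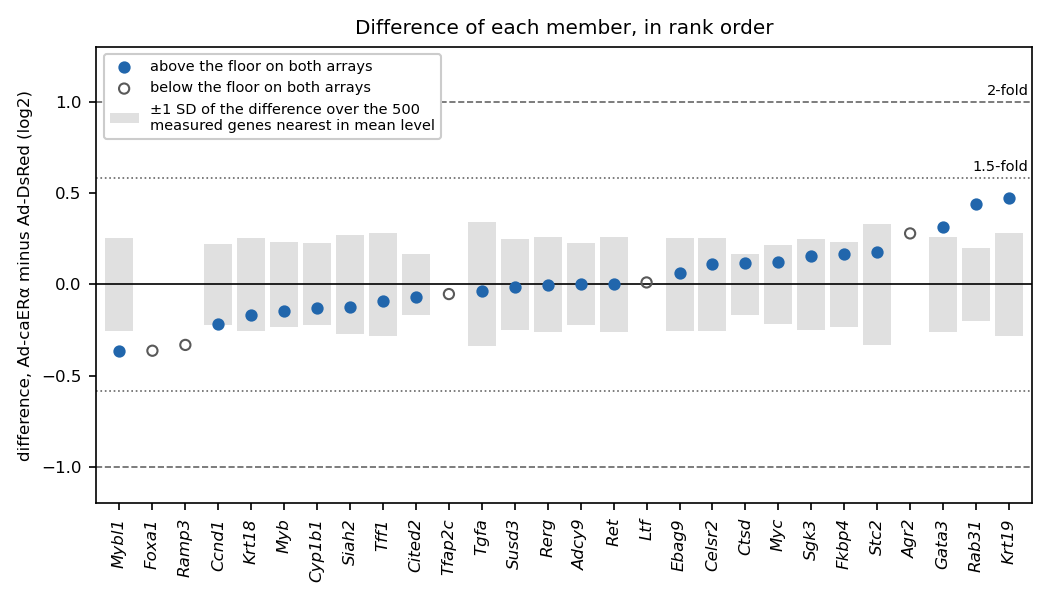
Difference between the vectors (log2) for the 28 genes in rank order; grey bars give ±1 SD of the difference over the 500 measured genes nearest in mean level, drawn for genes above the floor. All points lie inside the dotted 1.5-fold lines, with Mybl1 lowest at -0.37 and Krt19 highest at 0.47.

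Secreted and luminal proteins include the best known estrogen markers of breast cancer cells, and 4 of the 6 with a probe set were measured. Tff1, a trefoil peptide of mucosal surfaces long used as a marker of estrogen action, had a signal of 5.56 with Ad-DsRed and of 5.46 with Ad-caERα. Both values lie near the floor, and the difference of -0.092 became 0.0022 after the loess correction. Ctsd, the lysosomal protease cathepsin D, was at 11.81 and 11.93, a 1.08-fold higher signal. Stc2, the secreted glycoprotein stanniocalcin 2, was at 6.67 and 6.84 (1.13-fold). Tgfa, an EGF receptor ligand, was at 7.13 and 7.10. The uterine iron-binding protein gene Ltf stayed below the floor at 4.26 and 4.27. Agr2, a disulfide isomerase of secretory epithelia, was also below it at 3.30 and 3.58, so its difference of 0.28 carries no direction. None of the 4 measured genes differed by more than 1 SD of genes at a similar level.

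Some relatives and receptors of these proteins, a larger set of genes, differed by more than the members themselves. Ctsh, the aminopeptidase cathepsin H, was at 5.86 with Ad-DsRed and 7.35 with Ad-caERα, 2.82-fold higher. It was 1 of 8 measured cathepsins past the 2-fold rule, and their median was 0.19. Of the 9 measured EGF receptors and ligands 8 lay below 0, as did 6607 of all 13550 measured genes. The count of 8 was not recomputed under other scalings. The median of the 9 was -0.13, with 0 past 1.5-fold, the lowest being Erbb3, a receptor for neuregulins (-0.54), and Egfr (-0.34).

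Receptors and membrane proteins showed the smallest differences of the role groups, from -0.012 to 0.11 over 5 measured genes. Ret, the receptor tyrosine kinase for ligands of the glial cell line-derived neurotrophic factor (GDNF) family, was listed at 5.72 on both arrays. Adcy9, an adenylyl cyclase, was listed at 8.20 on both. These 2 pairs are identical to the last deposited digit. The same held for 140 measured genes (1.03%) and for 855 of 35556 probe sets (2.40%), so an exact 0 also occurs elsewhere in the table. Susd3, a sushi domain protein of the cell surface, was at 5.36 and 5.35. Celsr2, a cadherin of planar cell polarity, was at 5.23 and 5.35. Ebag9, first described as an estrogen receptor-binding fragment-associated antigen, was at 7.87 and 7.93. Ramp3, which modifies the calcitonin receptor-like receptor, was below the floor at 4.52 and 4.19.

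Among the partners of these receptors, a larger set of genes, some differences were larger. Gfra1, the co-receptor through which GDNF engages Ret, was at 9.09 with Ad-DsRed and 8.45 with Ad-caERα, 1.56-fold lower and the only 1 of 7 measured genes of this group past 1.5-fold. Calcrl, the receptor that RAMP proteins accompany, was at 9.79 and 9.28. Socs2, a feedback inhibitor of growth hormone and prolactin signalling, was at 10.26 and 11.27, 2.01-fold higher, but its difference fell short of 2-fold after quantile normalization (0.97) and loess correction (0.99). Its other probe set gave a difference of 1.05. The other 5 measured genes of prolactin signalling lay between -0.17 (Ghr) and 0.28 (Stat5a).

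Among transcription factors and their partners, Gata3 and Mybl1 lay apart from 0 in opposite directions. Gata3, which specifies luminal cells in breast and T cells in blood, was at 7.81 with Ad-DsRed and 8.13 with Ad-caERα, 1.24-fold higher. Its signal passed the floor on both arrays, in contrast to the other pioneer factors. Foxa1 lay below it as given above, and Tfap2c (AP-2γ) was at 4.55 and 4.50. Mybl1 (A-Myb) was at 8.24 and 7.88, 1.29-fold lower and the lowest measured member. It is a relative of Myb, an estrogen-responsive proto-oncogene in breast cancer, which was at 5.33 and 5.18. Myc, which drives growth and ribosome synthesis, was at 9.90 and 10.02 (1.09-fold). Cited2, which binds the coactivators p300 and CBP, was at 11.94 and 11.87. Of the 5 measured factors 2 lay above 0 and 3 below.

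Of 11 listed relatives of the pioneer factors 7 were measured, against 72.3% of all named genes outside the receptor families. Foxa3, Tfap2a, Tfap2b and Tfap2d lay below the floor on both arrays. Gata4, a cardiac and endodermal factor, was 1.58-fold higher at 8.82 and 9.49, and Foxa2, a pioneer factor of endoderm, followed at 5.50 and 6.06. The median over 7 measured relatives was -0.031. Mybl2 (B-Myb), a cell cycle transcription factor, was at 7.80 and 7.37, a difference of -0.43 beside the -0.37 of Mybl1. The Myc network had 5 of 9 members above 0, from Mxd1 (-0.092) to Mxd4 (0.30), and around Cited2 the coactivator genes Ep300 (-0.24) and Crebbp (-0.21) were lowest of 5.

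Cell cycle, GTPase and enzyme genes were all measured, and Rab31 differed most among them. Rab31, a small GTPase of endosomal and Golgi traffic, was at 11.10 with Ad-DsRed and 11.54 with Ad-caERα. This 1.35-fold difference lay past 2 SD of the difference over genes of similar level, and 6.08% of all measured genes lay at least as far from 0. It ran from 0.42 to 0.47 over the 3 scalings. Ccnd1, cyclin D1, which drives entry into the cell cycle and is induced by estrogen in breast cells, was at 11.15 and 10.93, 1.16-fold lower. Fkbp4, the Hsp90 cochaperone FKBP52 of steroid receptors, was at 9.17 and 9.34 (1.12-fold). Sgk3, a kinase related to AKT, was at 5.55 and 5.71.

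The remaining genes of this role lay near or below 0. Cyp1b1, which hydroxylates estradiol, was at 8.36 and 8.23, and Siah2, a ubiquitin ligase of the hypoxia pathway, was at 8.65 and 8.52. Rerg, a Ras-like growth inhibitor named for its regulation by estrogen, was at 7.42 and 7.41. Of 13 measured genes around Ccnd1 (cyclins, cyclin-dependent kinases, their inhibitors and the retinoblastoma gene Rb1) 10 lay below 0 with a median of -0.11, and 0 passed 1.5-fold. They ran from Ccne2 (-0.32) to Cdkn1b (0.26). Of all 13550 measured genes 6607 lay below 0, and the count of this group was not recomputed under the other scalings. Ccnd1 itself lay below 0 by less than 1 SD of genes at a similar level.

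Around the enzymes, Tiparp, which dampens aryl hydrocarbon receptor activity, was at 9.87 and 10.71 (1.79-fold higher). Of 4 measured genes of that receptor's group 2 lay above 0, Tiparp and Nqo1 (0.25), and 2 below. Cyp1a1, Cyp1a2 and Ahrr lay below the floor on both arrays. Cyp1b1, a target of the receptor, lay below 0 by less than 1 SD of genes at a similar level. A link between Tiparp and Cyp1b1 was not tested. Among 8 measured small GTPases related to Rab31 and Rerg 7 lay above 0, against 50.2% of all measured genes. That count was not recomputed under the other scalings. Rasl11b was 1.51-fold higher, and Rasd1, a Ras-like protein induced by glucocorticoids, was below the floor in Ad-DsRed and at least 1.44-fold higher. The 7 measured genes of the group around Fkbp4 (Hsp90, its cochaperones and Nr3c1) stayed between -0.15 (Ptges3) and 0.039 (Nr3c1, the glucocorticoid receptor). The other probe sets of Ptges3 gave -0.11 and 0.12, so they differ in sign.

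The keratin pair differed in direction, but only Krt19 lay past 1 SD of genes at a similar level. Krt19, a luminal keratin, was at 6.76 with Ad-DsRed and 7.23 with Ad-caERα, 1.39-fold higher and the highest measured member. Of all measured genes 4.88% lay at least as far from 0. Krt18 was near the floor at 5.44 and 5.27, 1.13-fold lower, and 41.5% of all measured genes lay at least as far from 0. The Krt18 difference was -0.063 after the loess correction. Krt8, the filament partner of Krt18, was at 6.50 and 6.28 (-0.23). Of 14 luminal epithelial markers, Krt18 and Krt19 included, 7 were measured, 2 of them above 0 and 5 below, with a median of -0.0825. The summed linear signal over all 14 was 609 with Ad-DsRed and 628 with Ad-caERα. Krt19 is part of this sum, so the sum is no measure of epithelial cells apart from Krt19. Besides Krt19, the measured marker above 0 was Spint1, at 5.64 with Ad-DsRed and 6.02 with Ad-caERα (0.38). Cldn3 (-0.029) and Cldn4 (-0.0825) passed the floor on both arrays. Epcam, Elf3, Elf5, Cldn7, Esrp1, Grhl2 and Muc1 lay below the floor on both arrays, and Cdh1, E-cadherin, passed it only in Ad-DsRed, at 5.13 against 5.03. Of 5 basal epithelial markers 2 were measured, Krt14 (0.074) and Trp63 (0.39), and the summed signal over all 5 was 281 and 338. Trp63, at 7.35 and 7.74, has the highest signal of the 5, so this sum is no measure of basal cells apart from Trp63. The part of epithelial cells in the Krt19 difference was not tested. Of the other markers 1 of 6 for leukocytes, 1 of 5 for endothelium, 2 of 5 for adipocytes and 5 of 6 for fibroblasts were measured, 0 of them past 1.5-fold.

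**Figure D3:**
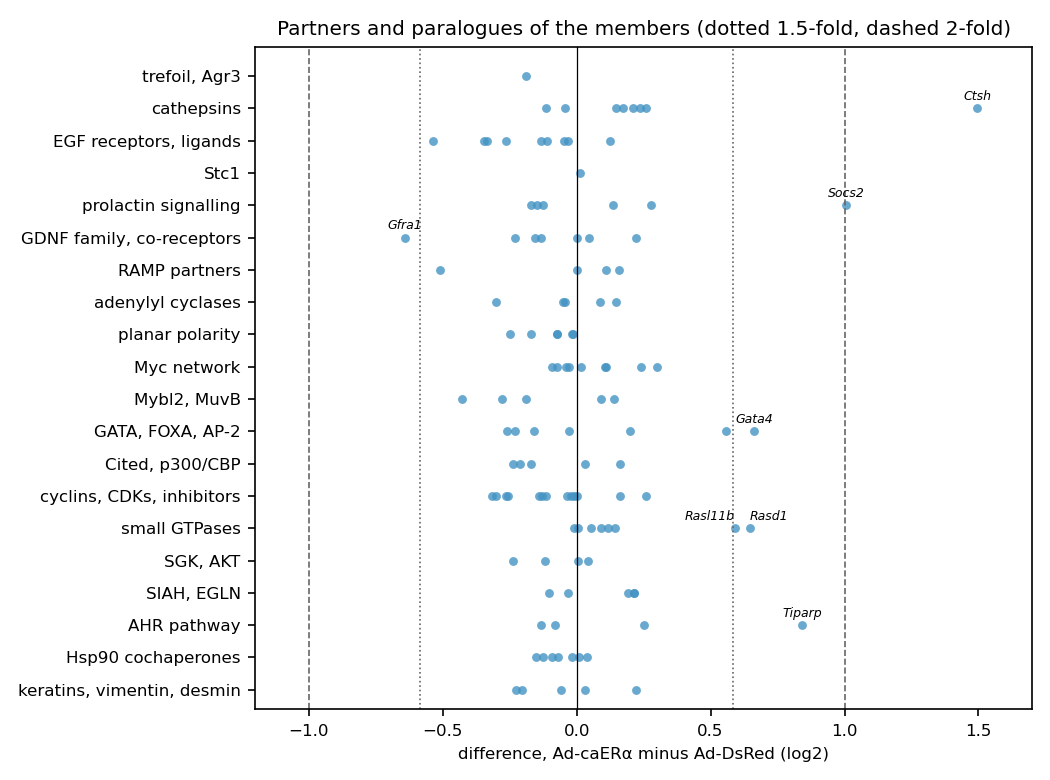
Difference between the vectors (log2) for measured partners and paralogues of the members, 1 point per gene and 1 line per group. Ctsh and Socs2 lie past the dashed 2-fold line, Tiparp, Gata4 and Rasl11b past the dotted 1.5-fold line on the right, and Gfra1 past that on the left; Rasd1 is also drawn past the line on the right, but it lay below the floor in Ad-DsRed and its bound is 1.44-fold.

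Other estrogen-responsive genes on the same arrays gave a wider range. This list of 22 genes was compiled with results of these data known, so its direction is not independent evidence. Of its 17 measured genes 4 were at least 2-fold higher and 0 lower, 12 lay above 0 and 5 below, and the median was 0.18. The 4 were Greb1 and Pgr, which were at 5.03 and 4.70 in Ad-DsRed, below the floor, and at 9.31 and 7.17 in Ad-caERα, together with Ccn5 (2.59-fold) and Esr1 (2.08-fold), the receptor gene. Ad-caERα carries an estrogen receptor α, so in the Esr1 signal its transcript and that of the cells' own gene cannot be told apart. The lowest of the 17 were Trim25 (-0.36) and Cxcl12 (-0.33). Among its genes short of 1.5-fold, the differences of Igf1 (0.47) and Slc7a5 (0.47) equalled that of Krt19 to the second decimal. Over the members' partners and paralogues, with these genes left out, 2 of 119 measured genes were 2-fold higher and 0 lower, against 0.59% and 0.0959% of all measured genes. At 1.5-fold 6 of the 119 were higher, Rasd1 included, and 1 lower, against 1.82% and 0.886%. Whether the members and these lists differ was not tested, since genes are not replicates of a culture. The members, too, were chosen with earlier results of these data known, so a contrast between the lists is not independent evidence.

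**Figure D4:**
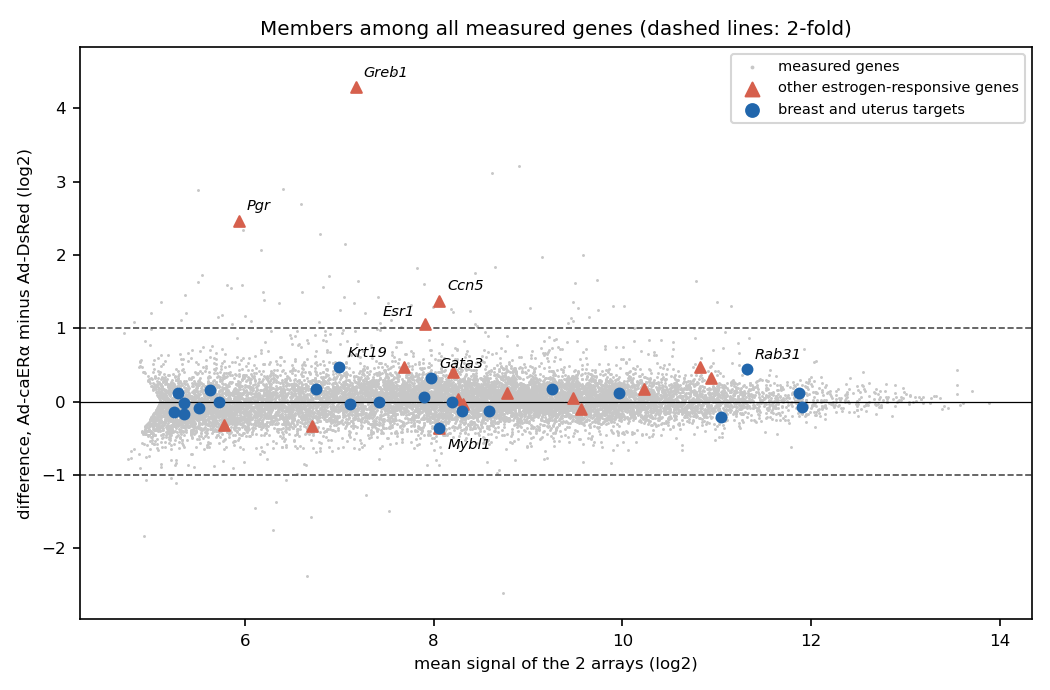
Difference between the vectors against mean signal of both arrays (log2) for 13550 measured genes (grey), the 23 measured members (blue) and 17 other estrogen-responsive genes (triangles); dashed lines mark 2-fold. The members lie within the body of the grey points, between -0.37 and 0.47, while Greb1, Pgr, Ccn5 and Esr1 lie above 2-fold. Members and other genes were both listed with earlier results of these data known.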

How the data were processed

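RNA of 1 culture per vector was hybridised to Affymetrix arrays. The authors deposited 1 log2 signal for each probe set, made with Affymetrix Expression Console and RMA, per the submitters' processing notes, without versions or filters. RMA corrects background, quantile-normalizes arrays and summarizes probes, which compresses weak signals and hides any change in total mRNA. Groups came from the sample titles; 1 label of the Ad-caERα sample writes the Greek letter differently.

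The platform annotation named 1 gene for 21789 of 35556 probe sets, several for 1621 and none for 12146; 21698 identifiers matched RefSeq (GRCm38.p6). The probe set with the highest mean was used per gene, although every member had only 1. The floor is the 95th percentile of the higher value over 1205 receptor probe sets. Promoter windows came from RefSeq. Named genes are all members and, of other lists, those past 2-fold and up to 2 at either end. Igf1, Slc7a5, genes past 1.5-fold, the remaining luminal markers, related genes below the floor and Rb1 were added after their values were seen. Members and lists were chosen with earlier results of these data known. The code was tested on simulated data. Python 3.11.15, numpy 2.4.6, pandas 2.3.3, statsmodels 0.14.6 and matplotlib 3.10.9 were used.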

Additional observations from a re-analysis of the deposited data

How the results depend on the processing

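No paired analysis was possible because either vector was profiled on a single array, and no array could be left out, so the spread between cultures is unknown. The counts of 0 members past 2-fold held under all 9 alternatives for floor, probe set rule, scaling and low values, and at 1.5-fold. The 0 at 3-fold follows from the 0 at 2-fold. With no floor all 28 genes were counted, still with 0 past 2-fold. With either higher floor 16 of the 28 were measured, 8 of them above 0. Of the 18748 named genes outside the receptor families, 10887 were measured with the floor at the 99th percentile of receptor probe sets. With the floor at the median of all probe sets 11131 were measured. The members' median ran from -0.0017 without a floor to 0.039 after quantile normalization. Each member had 1 probe set, so the probe set rules could not move its value. A changed floor decides only which genes are counted and could not move a member's difference either. The unmoved values below include these fixed ones. Of the recalculated values 293 stayed within 1.5 times (counts) or 0.13 on the log2 scale, the SD between probe sets of 1 gene, and 8 moved further. All 8 belong to Ltf, Agr2, Ramp3, Foxa1 and Tfap2c, which lie below the floor, where differences carry little information. The largest shift was 0.36, for Foxa1 with low values raised to the floor. Of the partners and paralogues, 2 were at least 2-fold higher under 7 of these 9 alternatives, applied to them after seeing the data, and 1, Ctsh, after quantile normalization or loess correction.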
